A study of Mus musculus with 5 samples.

Results

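The genes described here are 40 genes of the dividing cell, 14 of S phase and 26 of mitosis, followed in the upper back skin of hairless mice after scratching and after contact with nanomaterials. The 40 names were given as a list of S phase and mitosis genes. The list was drawn up with earlier results of these data known, so that its counts set against all genes are descriptions. All 40 were found by symbol among the 36716 genes of the count table.

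The skin came from 153 female SKH-1 mice, an albino hairless strain, aged 7 to 8 weeks. Mice received PBS (10 µL) or 500 µg of nanosized titanium dioxide (nTiO2), zinc oxide (nZnO) or silver (nAg) in that volume on the upper back. This was done on intact skin or directly after 12 strokes of a metal brush, and biopsies were taken at 24 h or 7 d. These 16 groups held 8 mice each, as did the groups scratched with nothing applied at 24 h and at 7 d, and 9 naive mice had no time point. RNA was extracted from whole skin, so fewer dividing cells and less of a transcript per dividing cell cannot be told apart in any value below.

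Cells copy their DNA in S phase and separate the copies in mitosis, and the genes needed for each step are transcribed in turn, so that their mRNA is found mainly in cycling cells. In resting epidermis these are basal keratinocytes and the cells at the base of the hair follicle. After a wound, keratinocytes at its edge divide to refill the epidermis, and immune and dermal cells can also cycle. E2F factors act on S phase genes through a GC-rich element, and the DREAM and MuvB complexes act on mitosis genes through the cell cycle genes homology region (CHR), often with CCAAT boxes nearby.

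The letters of these elements were looked for in the members' promoters, which were not used to choose the genes. RefSeq windows (GRCm38.p6, 250 bases before to 50 after the start) were held for 32 members, with none used here for Mcm4, Gins2, Ccna2, Aurkb, Kif20a, Tpx2, Stmn1 and Foxm1. Both strands were searched for TTTGAA or TTCGAA (CHR), for TTTGGCGC or TTTCCCGC or TTTGCCGC or TTTCGCGC (E2F), and for CCAAT. CHR letters stood in 16 of 20 mitosis members and 2 of 12 S phase members, against 21.7% of the 27025 genes with such a window. E2F letters stood in 6 of 12 S phase members and in 1 of 20 mitosis members (Cdk1), against 2.61% of all genes. CCAAT was found in 9 of 12 and 18 of 20, against 41.1% of all genes. A match is a description of letters in the window and not a site at which binding was measured.

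The windows of 6 mitosis members are shown as examples of the CHR letters, which are in capitals (TTCAAA is TTTGAA on the other strand). They were picked among the holders of these letters after their values had been seen. Of the mitosis members called most often below, Birc5 and Cenpe held no CHR letters in their windows and Ccna2 had no window.
Plk1: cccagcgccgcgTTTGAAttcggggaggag
Cdc20: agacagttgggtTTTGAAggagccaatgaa
Ube2c: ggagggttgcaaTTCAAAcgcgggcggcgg
Ccnb2: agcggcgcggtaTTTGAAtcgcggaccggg
Mki67: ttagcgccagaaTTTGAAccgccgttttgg
Cenpf: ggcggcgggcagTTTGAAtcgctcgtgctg
Their places in GRCm39, found by matching each window to the genome, were chr7:121758676-121758705 on the plus strand for Plk1 and chr4:118294541-118294570 on the minus strand for Cdc20. Ube2c lay at chr2:164611808-164611837 (plus) and Ccnb2 at chr9:70328815-70328844 (minus). Mki67 lay at chr7:135318207-135318236 (minus) and Cenpf at chr1:189420264-189420293 (minus). Each stretch lies at the 5′ end of its gene, within the window around the start of transcription.

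Of the S phase members with E2F letters, 4 that were called at 24 h are shown, again with the matched letters in capitals.
Mcm5: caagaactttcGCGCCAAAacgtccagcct
Mcm6: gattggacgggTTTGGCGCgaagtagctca
Mcm7: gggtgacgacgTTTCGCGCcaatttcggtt
Cdc6: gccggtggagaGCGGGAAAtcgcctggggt
Mcm5 lay at chr8:75835977-75836006 (plus) and Mcm6 at chr1:128287471-128287500 (minus). Mcm7 lay at chr5:138170111-138170140 (minus) and Cdc6 at chr11:98798828-98798857 (plus). In Mcm5, and at another place in Mcm6, a TTTCGCGC on the opposite strand shares letters with a TTTGGCGC, and in Mcm7 the TTTCGCGC shown overlaps a CCAAT.

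**Figure D1:**
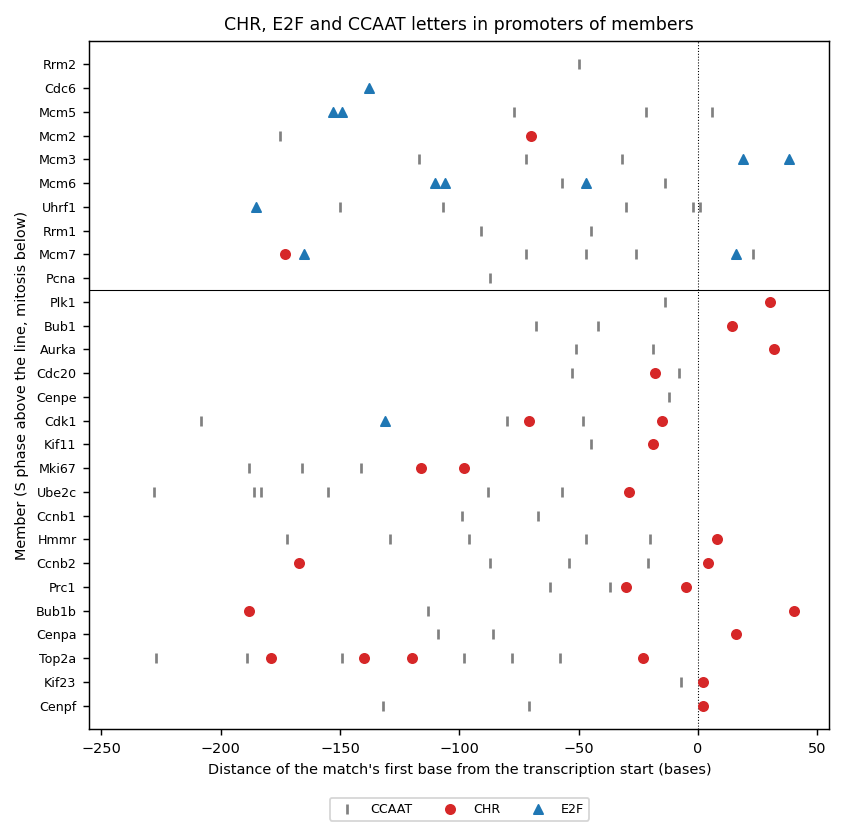
Positions of CHR (red circles), E2F (blue triangles) and CCAAT (grey bars) letters in the promoter windows of the members that hold any, as the distance of the match's first base from the start of transcription in bases. E2F letters stand in 6 S phase members and in 1 mitosis member, and CHR letters in 16 mitosis members and in 2 S phase members.

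The library of each mouse was shallow, which bears on the rarer members. Total counts of unique molecular identifiers ran from 201053 to 4028559 per mouse with a median of 1226021, the lowest being 7 d intact PBS replicate 3. RNA integrity numbers ran from 7.7 to 9.9. In a typical mouse a member had a median count between 5 (Cdc6, Foxm1, Stmn1) and 114 (Top2a). As CPM, counts scaled to the library's total, 28 members averaged at least 20 and 31 at least 10. Only 5 members were at 0 in any mouse, namely Foxm1 (7 mice), Cdc6 (5), Stmn1 (4), Uhrf1 (1) and Aurka (1). Mice were sequenced in 5 pools, the 24 h groups in pools 1 to 3 and all 7 d scratched groups in pools 4 and 5. At 7 d the intact PBS and nTiO2 groups were in pools 1 to 3, so for these groups pool and scratching cannot be told apart. For nZnO and nAg at 7 d, intact and scratched mice shared pools 4 and 5. Of the naive mice, 4 were in pool 1, 4 in pool 2 and 1 in pool 5. Scratched only mice shared just pool 2 with them at 24 h and just pool 5 at 7 d. The labels of 1 mouse (7 d intact nZnO, replicate 7) disagree on scratching, and the counts of members called were the same without it.

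The summed level of the 40 members was highest in the 5 groups scratched 24 h earlier. Their group means were 1493 to 1609 CPM, while the other 14 groups averaged 1091 to 1245.4 CPM. At 24 h, intact mice of the 4 substance groups ranged from 848 to 1490 CPM with a median of 1205 (n = 32), and scratched mice from 1131 to 2207 CPM with a median of 1575 (n = 32). At 7 d the corresponding ranges were 865 to 1417 (median 1141) and 984 to 1458 (median 1173). The arms therefore overlapped at both times, yet 23 of 40 mice scratched 24 h earlier stood above every other mouse of the series, and 29 of them were among the 40 highest. These sums are a description with no test.

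**Figure D2:**
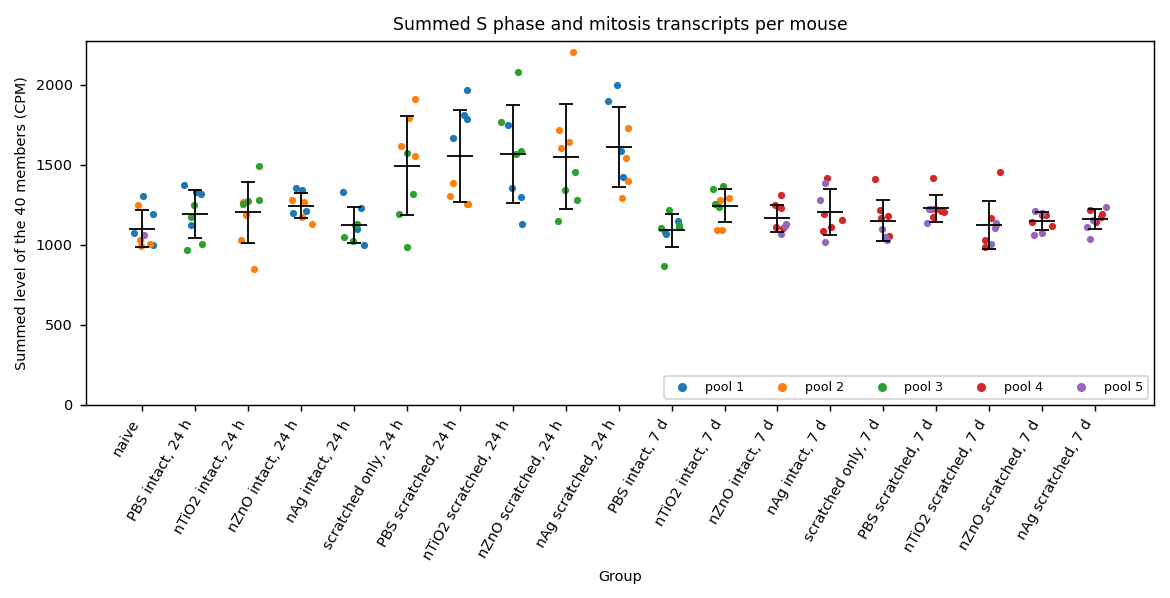
Summed level of the 40 members in CPM (vertical axis) for each of 153 mice, by group, coloured by sequencing pool, with the mean and SD of each group. The 5 groups scratched 24 h earlier have means of 1493 to 1609 CPM and no other group mean is above 1245.4.

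Scratching at 24 h was first compared within each substance, scratched against intact skin with 8 mice each, and as scratched only against the 9 naive mice. A gene was called when the Benjamini-Hochberg adjusted p of edgeR's quasi-likelihood test was under 0.05 and the log2 fold change was at least 0.33 in size. With PBS, 2 of 37 members tested were called higher, against 1.89% of all genes tested. With nTiO2 8 of 37 were higher (1.35% of all genes), with nZnO 6 of 38 (3.07%) and with nAg 11 of 38 (0.912%). Scratched only against naive gave 10 of 38 (1.57%). None was called lower in any of these 5 comparisons. Of 188 fold changes in all, 186 were positive, the exceptions being Pcna with nZnO at −0.05 and Gins2 in scratched only mice at −0.12. The calls totalled 37 and fell on 21 members. Leaving out 1 mouse at a time, the counts ran from 0 to 6 with PBS (0 without intact 1, 2 or 4 or scratched 1, 2, 3 or 4), from 3 to 12 with nTiO2 (3 without intact 7 or scratched 3), from 2 without scratched 4 to 14 without scratched 6 with nZnO, from 1 without intact 7 to 13 with nAg, and from 7 to 14 in scratched only mice. The p-values measure the spread between these mice.

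Rrm2, the small subunit of ribonucleotide reductase that supplies deoxynucleotides for DNA synthesis, was the only member called in all 5 comparisons. With PBS it ran from 25.3 through a median of 42.0 to 57.4 CPM in intact and from 39.5 through 87.4 to 109 CPM in scratched skin. With nZnO it ran from 36.8 through 45.1 to 58.9 CPM in intact and from 51.7 through 78.6 to 121 CPM in scratched skin. In both cases the groups overlapped, with 5 and 7 of 8 scratched mice above every intact mouse. Its log2 fold changes over the 5 comparisons lay between 0.68 (nTiO2) and 0.90 (nZnO), with adjusted p of 0.0388 for PBS, 0.013 for nTiO2, 0.00597 for nZnO, 0.0323 for nAg and 0.0254 for scratched only mice. Rrm1, the large subunit of the same enzyme, was called with PBS (log2 fold change 0.52 ± 0.14 SE) and in scratched only mice (0.52 ± 0.14 SE).

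Among the other S phase members, calls fell on genes of the replicative helicase and of nucleotide synthesis, which make up most of that list. The helicase subunits Mcm3 and Mcm7 were called in 0 of the 5 comparisons. Mcm2, a subunit of that helicase, ran from 17.9 through 22.4 to 26.6 CPM in intact and from 27.5 through 30.5 to 39.1 CPM in scratched skin given nTiO2. These groups did not overlap (log2 fold change 0.54 ± 0.12 SE, adjusted p 0.0219). Its fellow subunits Mcm6 (0.49 with nTiO2, 0.50 with nZnO), Mcm4 (0.72 with nZnO) and Mcm5 (0.94 with nZnO) were also called. Tyms, thymidylate synthase, was called with nAg at 0.53, where it ran from 53.1 to 93.9 CPM in intact and from 91.1 to 151 CPM in scratched skin. Tk1, the thymidine kinase of the salvage route, was called in the same comparison at 1.01 on the log2 scale.

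Among the mitosis members, Birc5 (survivin, of the chromosomal passenger complex) was called in 4 of the 5 comparisons and Ccna2 (cyclin A2) and Cenpe (a kinetochore kinesin) in 3. Birc5 with nAg ran from 27.5 through 39.4 to 59.1 CPM in intact and from 35.6 through 69.6 to 81.8 CPM in scratched skin, with 7 of 8 scratched mice above every intact one (log2 fold change 0.74 ± 0.15 SE, adjusted p 0.0198). Ube2c, the ubiquitin-conjugating enzyme of the anaphase-promoting complex, ran from 32.2 through 38.3 to 46.4 CPM in intact and from 47.1 through 60.6 to 90.5 CPM in scratched skin given nAg. These groups did not overlap (0.64 ± 0.13 SE, adjusted p 0.0199). Plk1, a kinase of spindle assembly, was called with nTiO2 at 1.02 ± 0.21 SE, where intact mice had 3.13 to 9.81 CPM and scratched mice 7.23 to 16.7 CPM. Cdc20, the activator of the anaphase-promoting complex, was called with nTiO2 (0.69) and nZnO (0.64), and Hmmr, a spindle-associated hyaluronan receptor, with nAg (0.76) and in scratched only mice (0.68). With nAg alone the proliferation marker Mki67 (0.59), the cyclin-dependent kinase Cdk1 (0.75) and the spindle motor Kif11 (0.68) were called. In scratched only mice the calls included Ccnb2 (cyclin B2, 0.83), the checkpoint kinase Bub1b (0.97) and Cenpa (the centromeric histone H3 variant, 0.70). The difference between substances in which members were called is addressed below by the interaction tests.

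**Figure D3:**
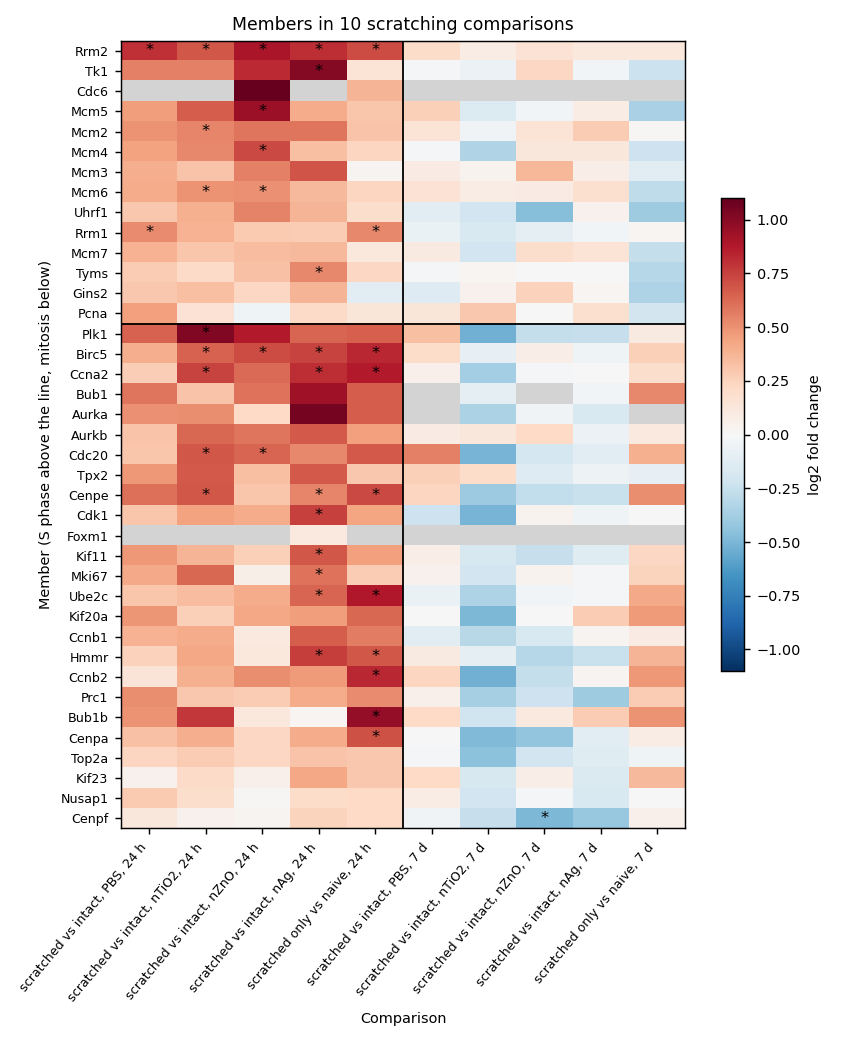
Log2 fold change (colour) of the members in the 5 scratching comparisons at 24 h (left) and the 5 at 7 d (right), with asterisks for called members and grey for members not tested. At 24 h 186 of 188 values are positive and 37 are called, and at 7 d 84 of 182 are positive and 1 is called.

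With the 4 substances in 1 fit of 64 mice at 24 h, 33 of 39 members tested were called higher in scratched skin and none lower, against 6.43% of all genes called higher. All 39 fold changes were positive. Their median was 0.44 on the log2 scale, beside −0.002 over all genes. The S phase members gave 12 of 14 with a median of 0.47, and the mitosis members 21 of 25 with a median of 0.43. Stmn1, a regulator of microtubules, did not pass the filter on low counts and was at 0 to 10.1 CPM in intact and 0 to 6.88 CPM in scratched skin. The fit with pool as a covariate also called 33 (6.26% of all genes).

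Among the S phase members the fold changes were highest for Rrm2, Tk1, Cdc6 and Mcm5. Rrm2 ran from 25.3 through a median of 44.1 to 58.9 CPM in intact and from 39.5 through 70.1 to 121 CPM in scratched mice, and 23 of 32 scratched mice exceeded every intact mouse. Its log2 fold change was 0.80 ± 0.094 SE with an adjusted p of 1.1e-09 (edgeR). Mcm5 ran from 9.49 through 17.9 to 31.4 CPM and from 13.4 through 28.7 to 55.9 CPM (0.62 ± 0.11 SE, adjusted p 1.3e-05). All 6 subunits of the helicase were called, from Mcm7 at 0.35 and Mcm6 at 0.44 through Mcm3 at 0.49, Mcm4 at 0.51 and Mcm2 at 0.55 to Mcm5. Tk1 rose by 0.73, Cdc6 (a loader of that helicase) by 0.65, Uhrf1 (a partner of maintenance DNA methylation) by 0.40, Rrm1 by 0.37 and Tyms by 0.33 on the log2 scale. Gins2, of the helicase cofactor GINS, had an adjusted p of 1.2e-04 but a fold change of 0.31, below the minimum. Pcna, the sliding clamp of DNA polymerase, also stayed below it at 0.19 (adjusted p 0.0495), with 27.5 to 66.1 CPM in intact and 28.4 to 87.5 CPM in scratched mice.

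Of the mitosis members, Plk1 had the highest fold change and Birc5 the smallest adjusted p. Plk1 ran from 1.13 through 6.43 to 14.97 CPM in intact and from 5.42 through 11.5 to 22.8 CPM in scratched mice (0.80 ± 0.14 SE, adjusted p 6.4e-06). Birc5 ran from 26.8 through 41.8 to 59.1 CPM and from 35.6 through 64.6 to 99.2 CPM, with 21 of 32 scratched mice above every intact mouse (0.63 ± 0.079 SE, adjusted p 6.9e-09). Regulators of mitotic entry and exit rose by 0.61 (Ccna2), 0.55 (Cdc20), 0.47 (Cdk1), 0.42 (Ube2c), 0.39 (Ccnb1, cyclin B1) and 0.38 (Ccnb2). The checkpoint and Aurora kinases rose by 0.59 (Bub1), 0.56 (Aurka), 0.55 (Aurkb) and 0.37 (Bub1b). Spindle and midzone genes rose by 0.54 (Tpx2, an activator of Aurka), 0.54 (Cenpe), 0.45 (Kif11), 0.41 (Kif20a, a kinesin of cytokinesis), 0.38 (Hmmr) and 0.38 (Prc1, a bundler of midzone microtubules). Mki67 rose by 0.43, Foxm1, a transcription factor of mitosis genes, by 0.45 and Cenpa by 0.34.

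A few abundant mitosis members moved little at 24 h. Cenpf, a large kinetochore protein, ran from 47.3 through 76.4 to 114 CPM in intact and from 55.2 through 81.9 to 118 CPM in scratched mice (0.11 ± 0.070 SE, adjusted p 0.25). Nusap1, a spindle microtubule protein, was at 0.18 (adjusted p 0.082) and Kif23, a kinesin of the midbody, at 0.18 (adjusted p 0.0389). Top2a, the topoisomerase that untangles sister chromosomes and the member with the highest mean, was at 0.26 with an adjusted p of 0.00156. Cenpf and Nusap1 missed the adjusted p and the fold change, and Kif23 and Top2a missed the fold change alone.

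**Figure D4:**
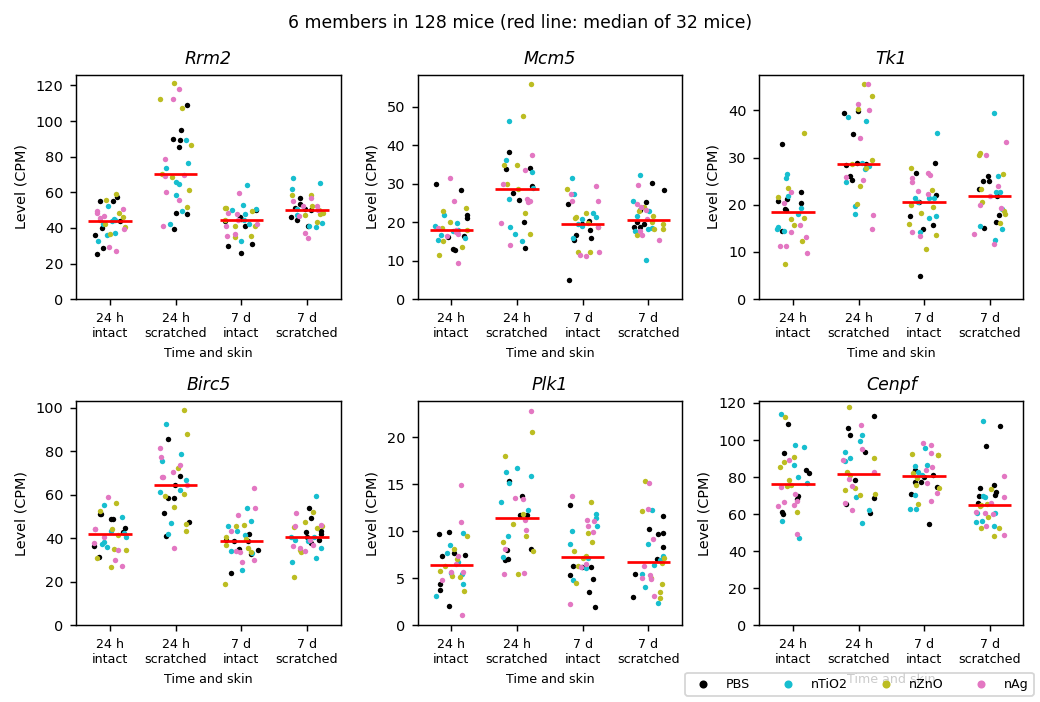
Level in CPM (vertical axis) of 6 members in the mice given PBS, nTiO2, nZnO or nAg, by time and skin, 1 point per mouse, with a red line at the median of 32 mice. The medians of Rrm2 are 44.1 CPM in intact and 70.1 CPM in scratched skin at 24 h, and those of Cenpf 76.4 and 81.9 CPM.

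The size of the 24 h difference was uneven within groups. In every 24 h group, mice numbered 1 to 4 were sequenced in 1 pool and mice 5 to 8 in another. In all 5 scratched groups the mice numbered 1 to 4 had the higher median of the summed members, whichever pool held them. With PBS they ran from 1668 to 1970 CPM in pool 1 and the others from 1257 to 1389 CPM in pool 2, with no overlap. With nZnO they ran from 1607 to 2207 CPM in pool 2 and the others from 1151 to 1457 CPM in pool 3, again with no overlap. The medians were 1675 and 1325 CPM with nTiO2, 1744 and 1470 CPM with nAg, and 1702 and 1257 CPM in scratched only mice. In intact skin the mice numbered 1 to 4 had the lower median in 3 groups and the higher in 1, with medians of 1090 and 1323 CPM (PBS), 1109 and 1276 CPM (nTiO2), 1278 and 1221 CPM (nZnO) and 1088 and 1166 CPM (nAg).

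The count of called members followed the same line. With mice 1 to 4 of each group alone, 37 of 39 members were called higher at 24 h, against 8.23% of all genes, with a median of 0.66 on the log2 scale. With mice 5 to 8 alone, 2 of 40 were called, against 1.51% of all genes, with a median of 0.18, and 37 of the 40 values were positive. The 2 were Rrm2 (0.39 ± 0.11 SE, adjusted p 0.0391) and Tk1 (0.65 ± 0.16 SE, adjusted p 0.0157). Each of these fits held 32 mice. Of the scratched mice, 15 of 16 numbered 1 to 4 and 3 of 16 numbered 5 to 8 had a sum above every intact 24 h mouse. Within pools 1, 2 and 3 alone, 16, 11 and 7 members were called (3.47%, 1.76% and 1.26% of all genes), and the medians were 0.47, 0.46 and 0.36. These single-pool fits held no term for substance, and the arms of a pool were not given the same set of substances. The share of mice numbered 1 to 4 also differed between the arms of each pool. These splits were made after the values had been seen, and what set the mice apart was not tested. Mice were housed 4 to a cage, and the cage of each mouse was not analysed here.

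Marker genes of wound-edge keratinocytes were also higher in scratched skin at 24 h. The summed level of the 9 markers (such as Krt6a, Krt6b, Krt16 and Sprr1b) ran from 1950 through 4930 to 6996 CPM in intact and from 4238 through 8392 to 17138 CPM in scratched skin at 24 h, and 8 of the 9 were called higher, with a median of 1.35. In the scratched groups the medians for mice 1 to 4 and mice 5 to 8 were 11418 and 7139 CPM (PBS), 9219 and 6510 CPM (nTiO2), 15704 and 6470 CPM (nZnO), 9994 and 7566 CPM (nAg), and 10861 and 6559 CPM (scratched only). These went the same way as the members in each scratched group. In intact skin the medians were 4753 and 4739 CPM (PBS) and 5029 and 3962.5 CPM (nTiO2). They were 4567 and 5283 CPM with nZnO and 5941 and 5418 CPM with nAg. In each intact group this was the opposite order to that of the members, with overlapping ranges. Other cell type markers also differed between mice 1 to 4 and mice 5 to 8 of the scratched groups. The summed T cell markers had lower medians in mice 1 to 4 of all 5 scratched groups, at 168 and 223 CPM (PBS), 184 and 252 CPM (nTiO2), 161 and 215 CPM (nZnO), 183 and 244 CPM (nAg), and 171 and 270 CPM (scratched only). The summed basal keratinocyte markers had higher medians in mice 1 to 4 of all 5, from 5472 to 6670 CPM against 4858 to 5313 CPM. Skeletal muscle markers were lower in mice 1 to 4 of 4 groups, as with nTiO2 at 739 and 5188 CPM, and higher with nZnO at 3281 and 1930 CPM. In intact skin T cell medians were 268 and 235 CPM (PBS), 250 and 267 (nTiO2), 255 and 289 (nZnO) and 264 and 306 (nAg). Basal keratinocyte medians there were 5614.5 and 4254, 4436 and 3918, 4152 and 4667, and 4529 and 4841 CPM in that order. Muscle medians were 4211 and 2567, 1153 and 783, 1240 and 2654.5, and 1639 and 1185 CPM. Over the 4 substances, of 8 basal keratinocyte markers, 4 were called higher (among them Itga6 at 0.61, Krt14 at 0.50 and Itgb4 at 0.44) and Krt15 lower (−0.65). Myeloid markers were higher in 7 of 11, of which S100a8 is also on the wound list, while T cell markers were lower in 6 of 7, sebocyte markers in 6 of 10, fibroblast markers in 3 of 7 with 1 higher, and adipocyte markers in 3 of 7. Of the hair matrix markers 1 of 11 was lower, and none of 11 skeletal muscle and 5 endothelial markers was called. In this fit 6.43% of all genes were called higher and 785 of 12429 lower. No marker of any list was at 0 over an arm, and the part of these cell types in the members' values was not tested.

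At 7 d almost no member was called. Scratched against intact skin gave 0 of 35 members with PBS (0% of all genes), 0 of 37 with nTiO2 (0.135%) and 0 of 37 with nAg (0.611%), and scratched only against naive 0 of 36 (1.23%). With an unadjusted p under 0.05 these counts were 1, 8, 3 and 12. Among all genes tested they were 1302 of 11800, 1510 of 11859, 1617 of 11942 and 1667 of 11423. DESeq2 called 0, 1, 1 and 0 members, and limma voom 0, 0, 0 and 1. With nZnO 1 of 37 was called lower, against 0.383% of all genes called lower. This was Cenpf, which ran from 65.6 through 81.0 to 92.6 CPM in intact and from 48.3 through 61.5 to 73.4 CPM in scratched skin (−0.49 ± 0.10 SE, adjusted p 0.0186). The groups overlapped. In all, 84 of 182 fold changes were positive.

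With the 4 substances in 1 fit at 7 d, 0 of 38 members were called, while 4.26% of all genes were called in either direction. At an unadjusted p under 0.05 there were 10 of the 38 members and 3166 of 12451 genes. DESeq2 and limma voom also called 0 members. The median was −0.07 on the log2 scale. The S phase members were mostly above 0 (9 of 13, median 0.05) and the mitosis members mostly below (4 of 25 above 0, median −0.12). Rrm2 was at 0.14 ± 0.060 SE (adjusted p 0.117), with medians of 44.2 CPM in intact and 50.0 CPM in scratched mice. Adjusted p was under 0.05 for 4 mitosis members, all lower and all under the minimum fold change, namely Cenpf (−0.30, adjusted p 3.8e-04), Top2a (−0.20, 0.00596), Prc1 (−0.23, 0.00859) and Cenpa (−0.26, 0.013). In pools 4 and 5, which held both arms for nZnO and nAg, the summed members averaged 1197 CPM in intact and 1170 CPM in scratched mice, and 1167 and 1137 CPM.

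**Figure D5:**
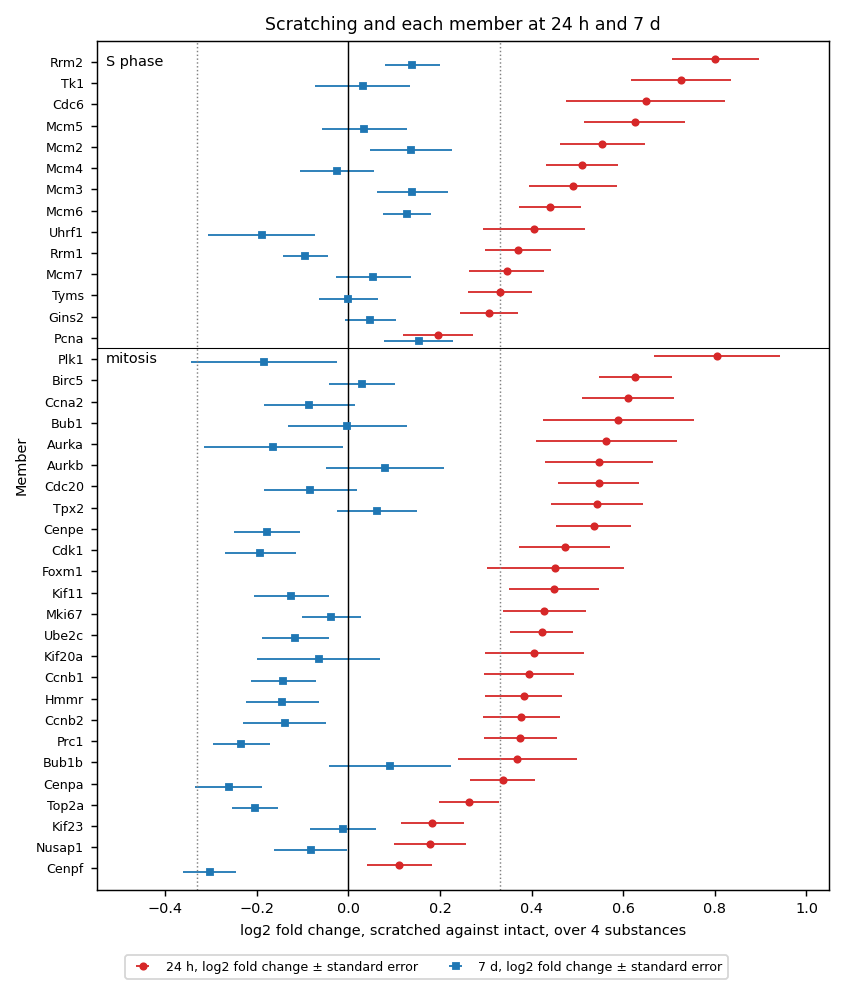
Log2 fold change with its standard error for each member, scratched against intact skin over the 4 substances, at 24 h (red circles) and 7 d (blue squares), with dotted lines at the minimum fold change of 0.33. All 39 values at 24 h lie above 0, from 0.11 (Cenpf) to 0.80 (Plk1), and those at 7 d lie between −0.30 (Cenpf) and 0.15 (Pcna).

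The change between the 2 times was tested as an interaction of scratching and time over the 4 substances. The scratching effect was lower at 7 d for 25 of 40 members and higher for none, against 2.46% of all genes called lower. The largest differences on the log2 scale were those of Plk1 (−0.98 ± 0.21 SE, adjusted p 7.8e-04), Aurka (−0.72), Cenpe (−0.70 ± 0.11 SE, adjusted p 2.1e-06), Ccna2 (−0.69) and Tk1 (−0.68). Of these 25 members, 7 were S phase and 18 mitosis genes. Pcna was at −0.03 (adjusted p 0.93). Restricted to the nZnO and nAg groups, whose 7 d mice shared pools, 15 members were called lower (1.39% of all genes). With only mice 1 to 4 of each 24 h group 34 members were called lower (5.26% of all genes), and with only mice 5 to 8 none (0.104%), where the median was −0.28.  With the 4 PBS groups alone none of 37 was called (0.394% of all genes in either direction), and none with DESeq2 or limma voom. At an unadjusted p under 0.05 there were 8 members and 1670 of 12175 genes. Of the 37 member values, 34 were negative.

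Between 24 h and 7 d the PBS-treated scratched skin itself fell in 11 of 37 members, against 2.44% of all genes called lower. These were Rrm1, Rrm2, Mcm4, Tyms, Tk1 and Gins2 of S phase and Ccnb1, Cdk1, Bub1, Birc5 and Cenpe of mitosis. Gins2 ran from 42.7 through 50.7 to 59.3 CPM at 24 h and from 27.4 through 34.0 to 41.0 CPM at 7 d, with no overlap (−0.59 ± 0.096 SE, adjusted p 0.00142). Bub1 ran from 5.16 through 12.6 to 16.4 CPM and from 2.21 through 5.01 to 8.50 CPM (−1.18 ± 0.28 SE, adjusted p 0.0178). In intact PBS skin 0 of 35 were called (0% of all genes), and none by DESeq2 or limma voom. At an unadjusted p under 0.05 there were 2 members and 673 of 11636 genes. The times of the scratched groups were in different pools and cannot be told apart from them.

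Without pool in the fit, no member was called between a nanomaterial and PBS with edgeR, DESeq2 or limma voom. With pool as a covariate, nZnO against PBS on scratched skin at 24 h called 10 members. On intact skin at 24 h, nTiO2, nZnO and nAg against PBS gave 0 calls each (0% of all genes in each). At an unadjusted p under 0.05 there were 0, 1 and 2 members, and 791 of 12057, 661 of 11816 and 842 of 11684 genes. On scratched skin at 24 h there were also 0 calls (0% in each), with 1, 1 and 0 members below that p. The genes below it were 331 of 11608, 483 of 11590 and 360 of 11714. At 7 d the counts were again 0 on intact skin with nTiO2 (0%), nZnO (0.0442%) and nAg (0.0859%), and on scratched skin with nTiO2 (0%), nZnO (0%) and nAg (0.00835%). There 3, 2 and 1 of 35 members on intact skin had an unadjusted p under 0.05. The genes below that p were 989 of 11288, 1175 of 11305 and 1556 of 11644. On scratched skin there were 5, 9 and 3 of 37 members, and 743 of 12073, 771 of 11971 and 641 of 11980 genes. The smallest adjusted p among members in these comparisons was 0.351 (Cenpe, nAg on intact skin at 7 d, 0.26 ± 0.12 SE). At 7 d the intact PBS mice were in pools 1 and 3, and the intact nZnO and nAg mice in pools 4 and 5. For nZnO and nAg on intact skin at 7 d, substance and pool therefore cannot be told apart. The intact nTiO2 mice shared just pool 3 with the PBS mice. On intact skin at 7 d with nTiO2, 32 of 35 fold changes were positive, with a median of 0.14 and the smallest adjusted p at 0.377 (Cdc20, 0.61 ± 0.19 SE, and Cenpe, 0.37 ± 0.12 SE). On scratched skin at 7 d, 2, 5 and 5 of 24 mitosis members were positive with nTiO2, nZnO and nAg (medians −0.22, −0.14 and −0.12). Of 13 S phase members 11, 10 and 10 were positive (medians 0.07, 0.11 and 0.15). The 3 scratched comparisons share the PBS mice.

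The scratching effect was not shown to differ between any nanomaterial and PBS. In the 7 d interactions with nZnO and nAg the intact PBS mice were in pools 1 and 3. All other mice of those fits were in pools 4 and 5, so the interaction cannot be told apart from pool. The interaction of scratching and substance called 0 members with nTiO2 at 24 h (0% of all genes) and 7 d (0%), with nZnO at 24 h (0%) and 7 d (0.00828%), and with nAg at 24 h (0%) and 7 d (0.115%). At an unadjusted p under 0.05 the counts of members were 0, 7, 1, 5, 1 and 4 in that order. Those of all genes were 541 of 12265, 1009 of 12127, 687 of 12112, 1127 of 12084, 586 of 12078 and 1408 of 12215. DESeq2 and limma voom also called no member. The comparison of nZnO with PBS on scratched skin at 24 h changed with pool as a covariate, when it called 10 members higher of 38, against 1.99% of all genes called higher. Only pool 2 held both groups, with nZnO mice 1 to 4 and PBS mice 5 to 8, so that substance and this numbering cannot be told apart there. The nZnO mice ran from 1607 to 2207 CPM of summed members and the PBS mice from 1257 to 1389 CPM. In the pools that held only 1 of the groups the order was the opposite, with 1151 to 1457 CPM for nZnO in pool 3 and 1668 to 1970 CPM for PBS in pool 1.

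PBS on intact skin was not shown to differ from naive skin in any member with edgeR. The counts were 0 of 35 at 24 h (0.692% of all genes) and 0 of 34 at 7 d (0.24%). DESeq2 and limma voom also called none. At an unadjusted p under 0.05 there were 9 and 7 members, and 872 of 11709 and 877 of 11269 genes. Mitosis members were mostly above naive (19 of 22 at 24 h and 15 of 21 at 7 d) and S phase members mostly below (1 of 13 and 0 of 13 above). Both comparisons share the naive mice. The largest single value was Ube2c at 0.55 ± 0.16 SE at 7 d (adjusted p 0.264).

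Other DNA replication and mitosis genes moved with the members at 24 h. In the fit over the 4 substances 6.43% of all genes were called higher, and 785 of 12429 lower. Of 33 other DNA replication genes tested, 12 were called higher and none lower in the fit over the 4 substances, with a median of 0.30, among them Gmnn (geminin, an inhibitor of relicensing, 0.60), Gins1 (0.62), Lig1 (the ligase of lagging strands, 0.61) and Rfc2 (a subunit of the clamp loader, 0.35). Of 37 other mitosis genes, 24 were higher and none lower, with a median of 0.35, among them Cdc25b (the phosphatase that activates Cdk1, 0.63), Tacc3 (of spindle microtubules, 0.59), Anln (of the cytokinetic ring, 0.47) and Cdca8 (borealin, the partner of Birc5, 0.39). Of 23 G1 cyclins, cyclin-dependent kinases and E2F genes, 5 were higher with a median of 0.10, among them Ccne1 (cyclin E1, 0.82), E2f1 (0.49), Ccnd1 (cyclin D1, 0.38) and E2f4 (0.37). Of 15 cell cycle inhibitors, Cdkn3 (0.64), Gadd45b (0.50) and Wee1 (0.35) were higher and Cdkn1c (p57, −0.50) lower, with a median of −0.06. At 7 d none of 33 other replication genes and none of 36 other mitosis genes was called, against 4.26% of all genes in either direction. E2f1 was higher at 7 d (0.38, adjusted p 0.0333), as were the inhibitors Wee1 (0.36) and Gadd45g (0.36), and Cdkn1b (p27) was lower (−0.34). The interaction with time was called lower in 8 of 33 and 18 of 37, against 2.46% of all genes called lower.

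Within groups the members varied together from mouse to mouse. After group means were taken away, the mean log2(CPM + 1) of the S phase members and that of the mitosis members had a Pearson r of 0.73 and a Spearman rho of 0.73 over 153 mice, and r was 0.75 without the 2 mice farthest from the median. Within pools r lay between 0.58 (pool 4) and 0.81 (pool 1). Single members were less alike, with a median r of 0.31 over pairs of the 28 members that averaged at least 20 CPM. Both scores come from the same libraries and share their depth, so these values are a description and carry no p. Among 9994 other genes of at least 10 CPM, the 10 most like the members' score were Cdca8 (r 0.68), Tspan3 (0.68), Dsg3 (0.66), Spc24 (0.64), Dtymk (0.62), Ddx39a (0.62), Snrpa1 (0.62), Lrat (0.61), Tubb6 (0.61) and Smc2 (0.61). Cdca8 and Smc2 were on the list of other mitosis genes. Spc24 is a kinetochore protein, Dtymk makes thymidine diphosphate, and Dsg3 is a desmosomal cadherin of basal keratinocytes.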

How the data were processed

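Each mouse's full-thickness skin gave a 3′ tag library with unique molecular identifiers, sequenced in 5 pools. The authors trimmed reads with Trimmomatic (reads under 20 bp removed), aligned them with STAR 2.7.6a to GRCm39 with Gencode M28 and counted identifiers per gene from uniquely aligned reads with Drop-seq tools 2.4.1, and the deposited values are these raw counts. The groups of single mice were taken from the names in the deposited tables, since each library record is a pool. The table held 153 mice. RNA integrity numbers are scores as deposited by the authors in the sample table. Members and gene lists were chosen with earlier results of these data known.

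A gene entered a fit if its count exceeded 5 in 75% or more of any 1 group's animals (6 of 8, 7 of 9). Counts were tested with edgeR 4.0.16 in R 4.3.3 (TMM, quasi-likelihood test), p-values were Benjamini-Hochberg adjusted over all genes tested, and calls needed an adjusted p under 0.05 and a log2 fold change of at least 0.33 in size. Alternatives were DESeq2 1.42.0, limma 3.58.1 voom with quality weights, DESeq2-type size factors, other filters and thresholds, pool as a covariate and leaving out single mice. Fits on single pools, on mice 1 to 4 or 5 to 8, on nZnO and nAg alone, with RNA integrity, or without a doubted mouse were chosen after seeing the data. The tests were tested on simulated data. Genes given singly were the members called in any comparison, members of at least 20 CPM, up to 4 called genes of each list by smallest p, and the 10 genes most like the member score, which is the mean log2(CPM + 1). Other genes named were chosen after their values were seen. Promoter sequences came from RefSeq. Deposited tables carry 0 columns of other samples.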

Additional observations from a re-analysis of the deposited data

Results flagged for a closer look

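In 4 groups 1 mouse stood apart from the others by Dixon's criterion, out of 38 such looks (19 groups for the summed level and for the score), and chance alone flags about 1 in 20. The summed level of the members was 865.44 CPM in 7 d intact PBS replicate 3, whose total count of 201053 was the lowest of the series, and the next mouse had 1070.1 CPM. It was 1415.2 CPM in 7 d scratched PBS replicate 8 (next 1226.1) and 1457.8 CPM in 7 d scratched nTiO2 replicate 7 (next 1169.1), whose total of 4028559 was the highest. The mean log2(CPM + 1) was 4.84 in 7 d scratched only replicate 6 (next 4.51).

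The effect of scratching differed between 24 h and 7 d for 25 members by the interaction test in edgeR, with a lower effect at 7 d in each. On the log2 scale the S phase members were Tk1 at −0.68, Rrm2 at −0.65, Uhrf1 at −0.59, Mcm5 at −0.58, Mcm4 at −0.53, Rrm1 at −0.46 and Mcm2 at −0.41. The regulators of mitotic entry and exit were Ccna2 at −0.69, Cdk1 at −0.65, Cdc20 at −0.62, Ccnb1 at −0.53, Ube2c at −0.53 and Ccnb2 at −0.51. The kinases and the passenger protein were Plk1 at −0.98, Aurka at −0.72 and Birc5 at −0.59. The spindle, midzone and chromosome genes were Cenpe at −0.70, Prc1 at −0.60, Cenpa at −0.59, Kif11 at −0.56, Hmmr at −0.52, Tpx2 at −0.47, Mki67 at −0.46, Top2a at −0.46 and Cenpf at −0.40.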

How the results depend on the processing

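Of 307 counts of called members under other settings, 283 stayed within 1.5 times the reported count and 24 did not, with no test of the cause. At an adjusted p under 0.1 the 24 h counts were 6 (PBS, from 2), 13 (nTiO2, from 8) and 14 (nZnO, from 6), and the 7 d counts 2 (nZnO, from 1), 1 (nAg, from 0) and 1 (scratched only, from 0). DESeq2 gave 5 with PBS at 24 h and, at 7 d, 1 with nTiO2 and 1 with nAg. No filter gave 4 with PBS at 24 h, and limma voom 1 in scratched only mice at 7 d. With pool as a covariate the 24 h counts were 5 (nTiO2), 21 (nZnO) and 4 (nAg, from 11), nZnO against PBS on scratched skin gave 10, and the 4 substances at 7 d gave 1. For the single scratching comparisons these counts stand without the share of all genes. They cannot be read as particular to the members. Within each substance, the only pool with both arms at 24 h held scratched mice 1 to 4 and intact mice 5 to 8. Scratching and this numbering cannot be told apart there. The 7 d fit over the 4 substances gave 4 with no minimum fold change and 1 for nZnO and nAg alone with pool. For the 4 substances at 24 h (33), pools 1, 2 and 3 alone gave 16, 11 and 7 and the last 4 mice of each group 2. The interaction (25) gave 15 for nZnO and nAg alone and 0 with the last 4 mice of each 24 h group. Bub1b, at 0.37 over the 4 substances at 24 h, was at −0.042 with the last 4 mice alone. Without 1 mouse the 24 h counts ran from 0 to 6 (PBS), 3 to 12 (nTiO2), 2 to 14 (nZnO), 1 to 13 (nAg) and 7 to 14 (scratched only). Of 1159 gene values under other settings, 171 lost their call, as did 184 of 602 with 1 mouse left out. Depth limits Cdc6, Foxm1 and Stmn1, with a median count of 5. No fit with mice of the same number as pairs was run, since equal numbers mark different mice.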
